A study of Mus musculus with 6 samples.

Results

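Nucleolar small ribonucleoproteins were followed in blood stem cells sorted from mouse bone marrow, through the 10 genes that encode their shared core proteins and the nucleolar chaperones that work beside them. The genes were taken by symbol from the deposited expression table: Dkc1, Nhp2, Nop10 and Gar1 of box H/ACA particles, Fbl, Nop56 and Nop58 of box C/D particles, and the chaperones Ncl, Npm1 and Nolc1. They are 10 of 11108 listed genes, and 10 of 10 passed the filter of a mean value of at least 10 that left 10846 genes for testing. The 6 libraries were 3 from Mcph1-/- mice and 3 from wild-type (WT) mice, each prepared by Smart-seq2, which copies whole transcripts into cDNA, from 200 bone marrow cells sorted as lineage-negative, Sca-1+, c-kit+, CD34- and CD150+. The labels name no treatment, and they do not give the age or strain of the mice, the deleted part of Mcph1, or whether each library had a mouse of its own, so the spread between libraries, and every p-value, may be technical.

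Small nucleolar RNAs guide chemical marks onto ribosomal RNA and other RNAs. Box H/ACA particles turn uridine into pseudouridine and box C/D particles methylate the ribose, and in each case the RNA picks the site while a core protein does the chemistry. Box H/ACA proteins are also part of telomerase, and in people inherited mutations of DKC1, NHP2 or NOP10 cause dyskeratosis congenita, a disease of bone marrow failure. NPM1 is one of the genes most often mutated in human acute myeloid leukaemia.

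Several of these genes carry in their own introns the small RNAs that the particles hold, and a few are shown so that the boxes the core proteins recognise can be seen. The sequences are from the GENCODE vM21 transcripts of mm10, written 5′ to 3′ as DNA letters. Capitals mark the letters TGATGA (box C) and CTGA (box D) in the first 3, and in the last ANANNA nearest the middle (box H) and the final ACA.
Snord110, in Nop56, chr2:130275506-130275573, plus strand: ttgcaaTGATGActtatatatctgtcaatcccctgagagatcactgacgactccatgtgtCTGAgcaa
Snord11, in Nop58, chr1:59704790-59704873, plus strand: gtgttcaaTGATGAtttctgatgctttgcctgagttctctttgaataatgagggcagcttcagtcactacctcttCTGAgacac
Snord82, in Ncl, chr1:86356261-86356330, minus strand: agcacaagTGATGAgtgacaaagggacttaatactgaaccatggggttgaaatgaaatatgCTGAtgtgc
Snora75, in Ncl, chr1:86351169-86351301, minus strand: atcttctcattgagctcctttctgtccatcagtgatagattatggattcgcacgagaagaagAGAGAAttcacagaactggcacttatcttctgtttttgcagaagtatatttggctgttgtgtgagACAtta

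Nested small nucleolar RNA genes on the host's strand numbered 5 in Nop56, 4 in Nop58, 3 in Ncl and 1 in Dkc1, and 0 in each of the other members. Thus 4 of 10 members were hosts, against 2.26% of the 10460 tested genes with an annotation, a description of the annotation and not of expression. The small RNAs themselves were not analysed here. Because some gene models of Nop56, Nop58 and Ncl retain the introns, reads of a nested RNA could have counted toward its host.

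Reads assigned to the listed genes numbered 9464810, 10455908 and 9484122 in the Mcph1-/- libraries and 8102605, 8450778 and 8655123 in the WT libraries. Genes with reads numbered 10516, 10777 and 10702 in Mcph1-/- and 10209, 10335 and 10278 in WT. Depth and detection thus differed along with genotype, and their part in the values of the members was not tested. The members had 140 to 8459 reads each per library. Values are normalised read counts, which are reads divided by 1 size factor per library. Mcph1 itself, the targeted gene, had 427.8, 37.7 and 233.9 in Mcph1-/- and 160.5, 341.0 and 34.4 in WT, so its reads did not set the genotypes apart and every direction rests on the labels. The sorting markers Kit and Ly6a were read in every library, whereas Slamf1, which encodes CD150, was at 0 in WT replicate 1 and at 0.893 in Mcph1-/- replicate 3, and Cd34 had 208 to 569 in Mcph1-/- and 201 to 529 in WT.

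The comparison asked whether these genes differ between Mcph1-/- and WT stem cells. The 3 chaperones, Nhp2 and Nop58 were higher in every Mcph1-/- library than in any WT library, by 1.43-fold to 1.95-fold on the log2(value + 1) scale, while Dkc1, Nop10, Gar1, Fbl and Nop56 overlapped between genotypes. No member passed the threshold of 0.05 by limma-trend with Benjamini-Hochberg adjustment over all genes, where 0.0369% of genes did. With an unadjusted limma p under 0.05, 5 members were higher, against 4.16% of all tested genes, and 0 were lower, against 3.55% (7.71% in either direction). The groups did not overlap for the same 5 members, all higher, against 7.4% of all tested genes higher and 6.8% lower. The members' median log2 fold change (Mcph1-/- over WT) was 0.59, against 0.08 over all tested genes. Of the 10 members 9 were above 0, against 53.8% of all tested genes, and 1 below, against 46.2%.

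The count-based tools gave different numbers of calls on the recovered reads. DESeq2 called 3 members higher, Nhp2 (adjusted p = 5.69e-05), Npm1 (adjusted p = 6.4e-04) and Nolc1 (adjusted p = 0.00132), in a fit that called 2.16% of all genes, 0.977% higher and 1.18% lower. Nop58 and Ncl had DESeq2 adjusted p-values of 0.0548 and 0.0694, and Fbl was given none. The quasi-likelihood test of edgeR called 0 members and 0.0184% of all genes, and 5 members were higher with an unadjusted p under 0.05, against 3.01% of all genes.

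The members are highly read, so they were also set beside genes of like level. Of the 10, 8 had a mean value of at least 1000, a level chosen after the values were seen. Among the 2027 genes at that level the median log2 fold change was -0.00054, close to 0, 8.29% were higher with an unadjusted p under 0.05 and 10.3% were higher without overlap. All 5 of the members named above lie in that class. In bulk samples, fewer cells expressing a gene and less RNA per cell cannot be told apart.

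**Figure D1:**
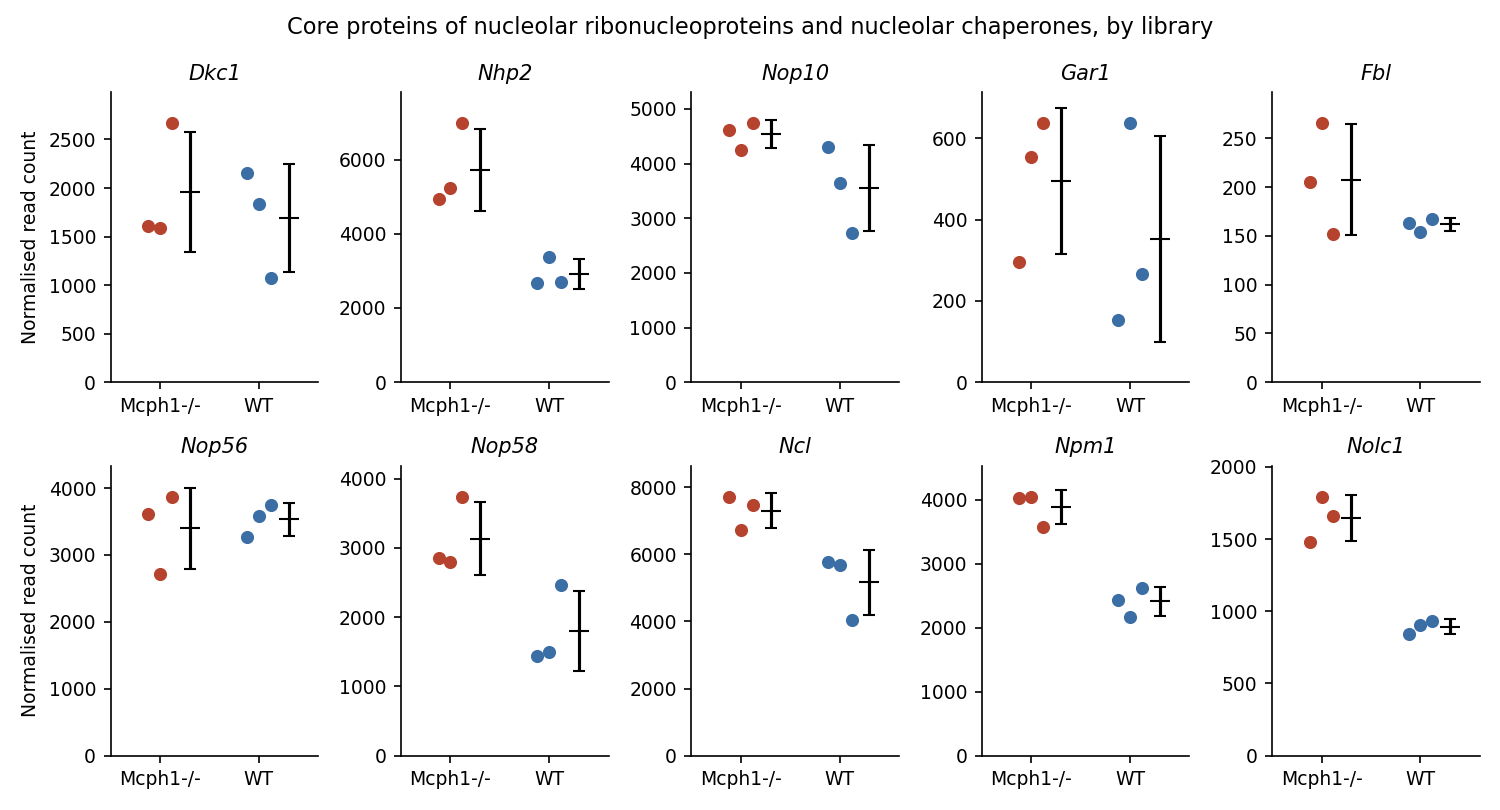
Normalised read count of each member (vertical axes, each from 0) in the 3 Mcph1-/- and 3 WT libraries (points), with mean ± SD in black. Nhp2, Nop58, Ncl, Npm1 and Nolc1 show no overlap, the other 5 do, and Gar1 has the widest spread in WT relative to its mean, from 152 to 638.

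Among the chaperones the genotypes were set apart for each gene. Nolc1 (chr19:46075863-46085530, plus strand in mm10), a heavily phosphorylated protein that shuttles between nucleolus and Cajal bodies and binds both particle classes, had 1477, 1795 and 1659 in Mcph1-/-, against 840.4, 908.7 and 935.3 in WT. The lowest Mcph1-/- library was well above the highest WT library, and both groups were tight, with a coefficient of variation of 9.71% in Mcph1-/- and 5.47% in WT. Its log2 fold change was 0.87 (SE 0.23, adjusted p = 0.550 by limma).

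Npm1 (chr11:33152287-33163206, minus strand), nucleophosmin, which holds the outer nucleolus together and chaperones ribosomal proteins and histones, had 4027, 4052 and 3577 in Mcph1-/- and 2437, 2176 and 2628 in WT. The groups were separated by a gap larger than the spread within either. The means were 3885 ± 268 in Mcph1-/- and 2414 ± 227 in WT (SD, n = 3 each), a log2 fold change of 0.69 (SE 0.17, adjusted p = 0.540 by limma).

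Ncl (chr1:86344719-86359400, minus strand), nucleolin, which binds nascent ribosomal RNA, was the most highly read member. It had 7717, 6713 and 7470 in Mcph1-/- and 5774, 5676 and 4041 in WT. WT replicate 3 was the lowest library and the other WT libraries were closer to the lowest Mcph1-/- library than to it. For Ncl the log2 fold change was 0.52 (SE 0.18, adjusted p = 0.626 by limma), and 0.35 without WT replicate 3.

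Within the box H/ACA core the members differed from each other. Nhp2 (chr11:51619735-51623714, plus strand), an RNA-binding core protein, had the smallest p of the 10, ranking 26 among 10846 genes. It had 4939, 5230 and 6982 in Mcph1-/- and 2671, 3370 and 2693 in WT, with means of 5717 ± 1105 in Mcph1-/- and 2911 ± 397 in WT (SD, n = 3 each). Every Mcph1-/- library was above every WT library, and Mcph1-/- replicate 3 was the highest. The log2 fold change was 0.96 (SE 0.19, adjusted p = 0.428 by limma), with a 95% interval of 0.52 to 1.41. Its exons share 44 bases with Rmnd5b on the other strand, as those of Dkc1 share 45 with Mpp1 and those of Nop56 share 5 with Idh3b. No strand setting is given in the sources used, so reads in these overlaps cannot be assigned.

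Dkc1 (chrX:75095854-75109777, plus strand), dyskerin, the pseudouridine synthase itself, had 1606, 1592 and 2669 in Mcph1-/- and 2158, 1838 and 1071 in WT. The groups overlapped throughout, with Mcph1-/- replicate 3 the highest and WT replicate 3 the lowest. For Dkc1 the log2 fold change was 0.23 (SE 0.33, adjusted p = 0.866 by limma), with a 95% interval of -0.53 to 0.99. It was -0.02 without Mcph1-/- replicate 3 and -0.070 without WT replicate 3, so its sign rests on those libraries.

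Nop10 (chr2:112261926-112263269, plus strand), the smallest core protein, which sits on the synthase, had 4615, 4252 and 4742 in Mcph1-/- and 4297, 3639 and 2730 in WT. WT replicate 1 was level with the Mcph1-/- libraries and WT replicate 3 lay lowest. Its log2 fold change was 0.37 (SE 0.20, adjusted p = 0.665 by limma), and 0.20 without WT replicate 3.

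Gar1 (chr3:129824912-129831396, minus strand), which helps the enzyme load and release its substrate RNA, was the least read of the H/ACA genes. It had 294.6, 553.7 and 637.5 in Mcph1-/- and 151.8, 637.7 and 266.2 in WT. WT replicate 2 equalled the highest Mcph1-/- library, and the 95% interval of its log2 fold change ran from -0.78 to 2.12, so that neither direction could be told at this depth and spread. The log2 fold change was 0.67 (SE 0.63, adjusted p = 0.775 by limma), and 0.19 without WT replicate 1 to 1.22 without WT replicate 2.

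The paired scaffold proteins of the box C/D core gave different values. Nop58 (chr1:59684971-59719044, plus strand) had 2853, 2801 and 3741 in Mcph1-/- and 1437, 1490 and 2462 in WT. The groups did not overlap, although WT replicate 3 stood far above the other WT libraries. Nop58 had a log2 fold change of 0.83 (SE 0.26, adjusted p = 0.617 by limma).

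Nop56 (chr2:130274430-130279313, plus strand), its partner in the particle, had 3613, 2715 and 3873 in Mcph1-/- and 3266, 3588 and 3745 in WT. Here the lowest library was Mcph1-/- replicate 2, and the other 5 libraries lay close together. The log2 fold change was -0.07 (SE 0.19, adjusted p = 0.940 by limma), with a 95% interval of -0.50 to 0.37, and 0.085 without Mcph1-/- replicate 2. Nop56 was the 1 member below 0.

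**Figure D2:**
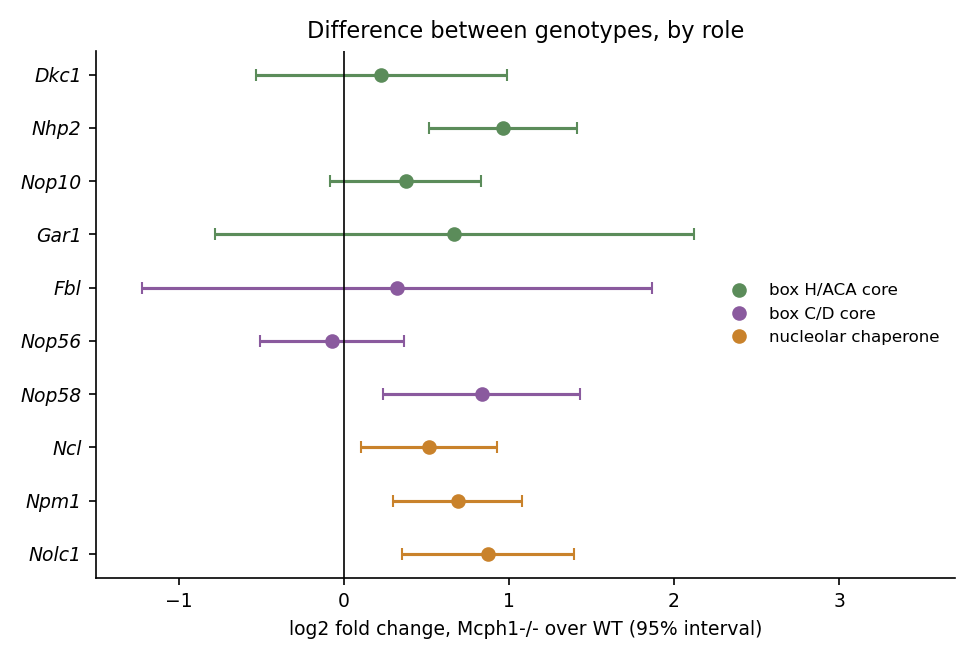
log2 fold change of each member, Mcph1-/- over WT (horizontal axis, points), with its 95% interval from limma, coloured by role. Intervals of Nhp2, Nop58, Ncl, Npm1 and Nolc1 lie above 0 before adjustment, those of the other 5 include 0, and Gar1 and Fbl have the widest.

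Partners of 1 particle were compared directly by their ratio in each library, computed per kilobase of exonic sequence. The Nhp2 to Dkc1 ratio was 11.1, 11.8 and 9.41 in Mcph1-/- and 4.45, 6.59 and 9.04 in WT. The Nhp2 to Nop10 ratio was 1.04, 1.19 and 1.42 in Mcph1-/- and 0.602, 0.896 and 0.954 in WT. In the box C/D core the Nop56 to Nop58 ratio was 3.32, 2.54 and 2.72 in Mcph1-/- and 5.97, 6.32 and 3.99 in WT. These 3 of 9 pairs did not overlap between genotypes, with log2 differences (Mcph1-/- minus WT) of 0.74, 0.59 and -0.90. Each had a two-sided exact permutation p of 0.1, the smallest that 3 against 3 libraries allow, and 0.3 after Benjamini-Hochberg adjustment over the 9 pairs. The other 6 pairs overlapped, and the genotype difference of a ratio does not depend on the gene length used. Each of the 3 pairs holds Nhp2 or Nop58, which did not overlap by themselves, so these ratios are not separate evidence. The share of other gene pairs without overlap was not computed.

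Fbl (chr7:28169710-28179269, plus strand), fibrillarin, the methyltransferase of box C/D particles, stood far lower than its partners. It had 205.3, 265.8 and 151.8 in Mcph1-/- and 163.8, 154.5 and 167.0 in WT. Mcph1-/- replicate 3 was the lowest library and Mcph1-/- replicate 2 the highest, so the groups overlapped. Its log2 fold change was 0.32 (SE 0.67, adjusted p = 0.914 by limma), and 0.13 without Mcph1-/- replicate 2 to 0.53 without Mcph1-/- replicate 3. By mean value Fbl ranked below 6794 of the 10846 tested genes, whereas Nop56 ranked below 398 and Nop58 below 666.

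The processed pseudogene Fbl-ps2 (ENSMUSG00000051639, chromosome 17, 6121208 to 6122164, mm10) was listed with more reads than Fbl itself in every library. A processed pseudogene is an intronless copy of a spliced transcript, and this one matched the Fbl transcript at 96.9% identity over 984 aligned bases. It had 1230, 1093 and 516.1 in Mcph1-/- and 715.7, 650.1 and 676.2 in WT. Fbl held 14.3%, 19.6% and 22.7% of the sum of both in Mcph1-/- and 18.6%, 19.2% and 19.8% in WT, a nearly constant part across WT libraries. Which locus these reads came from was not tested, so the level of Fbl is uncertain. With both summed the log2 fold change was 0.37 (SE 0.35, adjusted p = 0.771 by limma).

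Npm1 was also listed with pseudogene copies, 4 of them among the listed genes. The largest was Gm14681 (ENSMUSG00000081603, chromosome X, 66778442 to 66778852), 97.4% identical over 420 aligned bases. It had 1297, 1337 and 1331 in Mcph1-/- and 372.0, 443.0 and 992.0 in WT, again without overlap, with a log2 fold change of 1.27 (SE 0.40, adjusted p = 0.617 by limma). Npm1 itself held 74.7%, 74.3% and 72.1% of the summed values in Mcph1-/- and 85.4%, 81.5% and 71.9% in WT. With the 4 copies added, its log2 fold change was 0.80 (SE 0.18, adjusted p = 0.469 by limma). The 1 listed copy of Nop56 averaged 1.77 in Mcph1-/- and 6.54 in WT, and the other members had no listed copy at 90% identity or more over at least 300 bases.

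**Figure D3:**
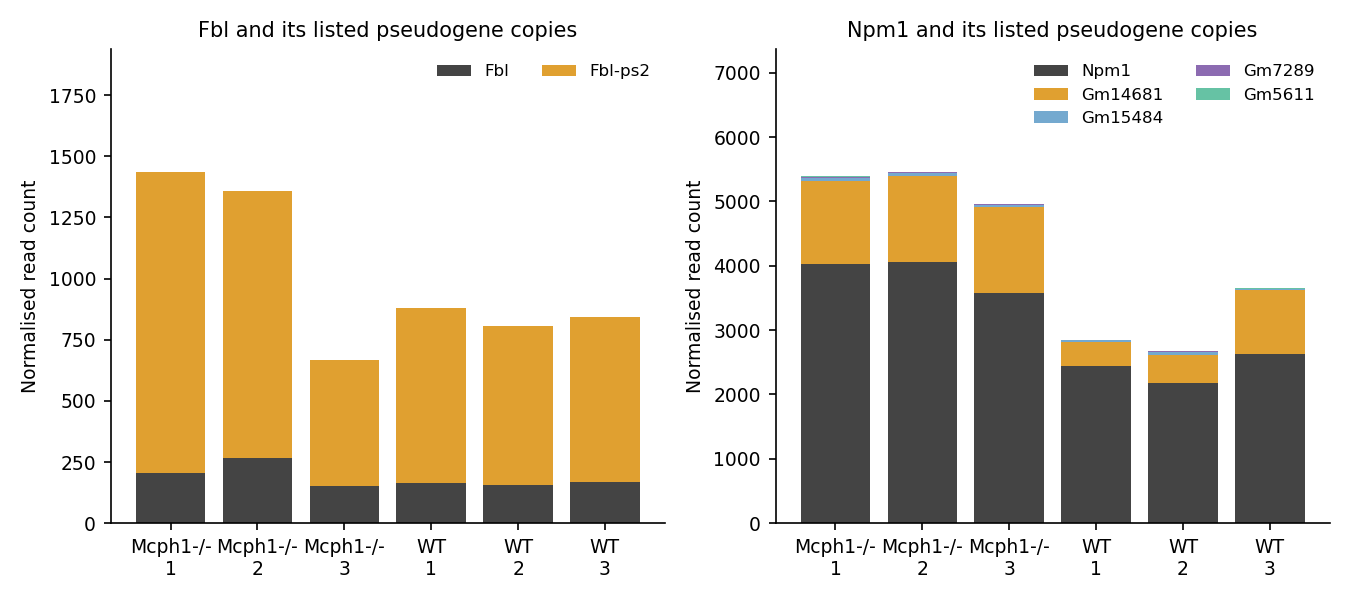
Stacked normalised read counts (vertical axes from 0) of Fbl and Npm1 (dark) and of their listed pseudogene copies (colours) in each library (horizontal axis). Fbl is 14.3% to 22.7% of its stack, and Npm1 is 71.9% to 85.4% of its stack.

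Levels of different genes can be set side by side per length, and here the order of levels depended on the length used. Per kilobase of all annotated exons, Nhp2 averaged 4989 ± 964 in Mcph1-/- and 2540 ± 347 in WT, and Nop10 averaged 4091 ± 229 in Mcph1-/- and 3206 ± 709 in WT (SD, n = 3 each). These were the highest levels, and in neither genotype were the 2 genes further apart than their summed SDs. Npm1 followed at 1458 ± 100 in Mcph1-/- and 906 ± 85.1 in WT, then Nop56 at 830 ± 148 in Mcph1-/- and 862 ± 59.6 in WT, and Ncl at 717 ± 51.3 in Mcph1-/- and 507 ± 95.5 in WT. In Mcph1-/- Nop56 and Ncl lay within their spread. Dkc1 averaged 475 ± 150 in Mcph1-/- and 410 ± 136 in WT, and Nolc1 414 ± 40.2 in Mcph1-/- and 225 ± 12.3 in WT. Nop58, Gar1 and Fbl were lowest, with Fbl at 49.3 ± 13.6 in Mcph1-/- and 38.4 ± 1.54 in WT.

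The place of Nop58 among the members depended on the length used. All annotated exons of Nop58 span 10758 bases and its principal coding sequence 1332, and for Ncl these are 10188 and 2121. Per kilobase of coding sequence, a length added after the data were seen, Nop58 averaged 2351 ± 397 in Mcph1-/- and 1348 ± 433 in WT, above Nop56 at 1954 ± 349 in Mcph1-/- and below Nop56 at 2031 ± 140 in WT. Nop10 was then first, at 23627 ± 1323 in Mcph1-/- and 18516 ± 4097 in WT, with a coding sequence of 192 bases in a transcript of 1109. Fbl was last under each of the 3 lengths in both genotypes.

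**Figure D4:**
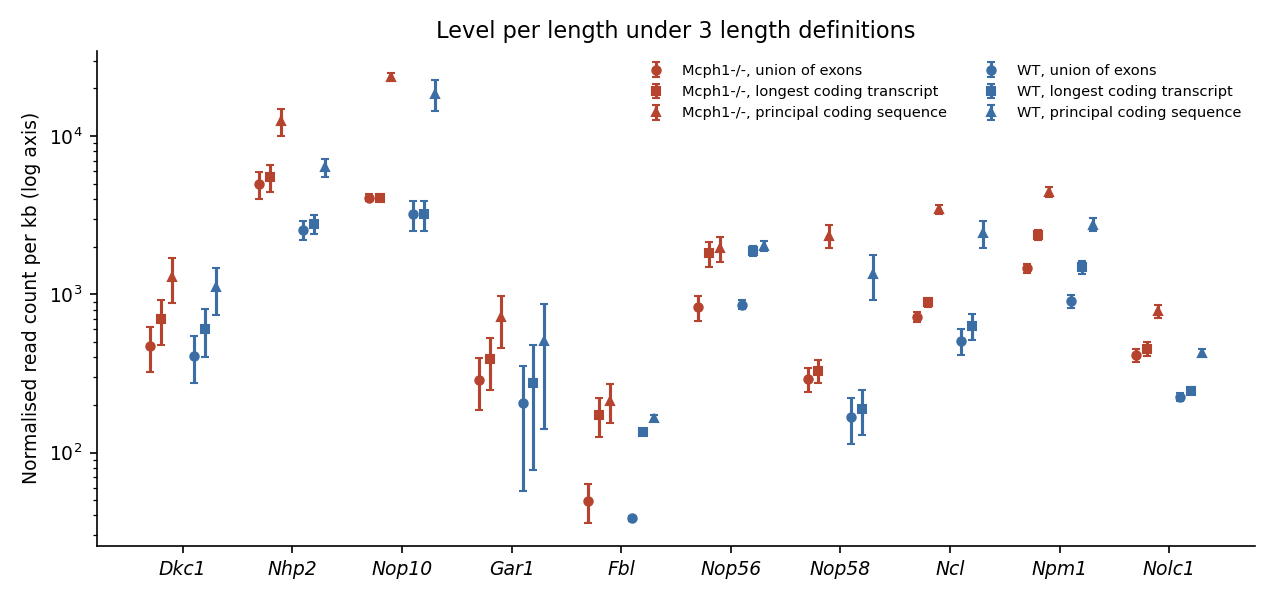
Mean normalised read count per kilobase ± SD (log axis, n = 3 libraries) of each member in Mcph1-/- and WT, under 3 definitions of gene length (marker shapes). Nhp2 and Nop10 lead under each definition, Fbl is lowest, and Nop58 moves most, from 291 to 2351 in Mcph1-/-.

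In all, the 10 genes took 0.363%, 0.349% and 0.419% of assigned reads in Mcph1-/- and 0.264%, 0.270% and 0.237% in WT. The widest 95% Wilson interval among them, that of Mcph1-/- replicate 3, was 0.415% to 0.423%, and covers counting error only. The chaperones alone took 0.153%, 0.146% and 0.150% in Mcph1-/- and 0.103%, 0.101% and 0.0868% in WT, and the shares did not overlap between genotypes. Box C/D shares were closer, at 0.0773%, 0.0674% and 0.0917% in Mcph1-/- and 0.0554%, 0.0601% and 0.0728% in WT.

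The promoters of Nhp2 and Nolc1, the members with the highest fold changes, are shown because they stand before the genes whose fold changes this comparison turns on. Each window runs from 250 bases before to 50 bases after the start, from RefSeq on GRCm38. Capitals mark GGGCGG or its reverse complement CCGCCC, the GC box, and CCGGAAGT, an ETS-type motif.
Nhp2, chr11:51619523-51619822, plus strand: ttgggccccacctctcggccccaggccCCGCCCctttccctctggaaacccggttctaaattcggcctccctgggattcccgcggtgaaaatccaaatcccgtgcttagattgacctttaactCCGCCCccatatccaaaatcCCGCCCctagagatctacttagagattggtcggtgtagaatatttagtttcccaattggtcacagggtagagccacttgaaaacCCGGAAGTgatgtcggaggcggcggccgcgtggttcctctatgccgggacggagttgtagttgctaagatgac
Nolc1, chr19:46075597-46075896, plus strand: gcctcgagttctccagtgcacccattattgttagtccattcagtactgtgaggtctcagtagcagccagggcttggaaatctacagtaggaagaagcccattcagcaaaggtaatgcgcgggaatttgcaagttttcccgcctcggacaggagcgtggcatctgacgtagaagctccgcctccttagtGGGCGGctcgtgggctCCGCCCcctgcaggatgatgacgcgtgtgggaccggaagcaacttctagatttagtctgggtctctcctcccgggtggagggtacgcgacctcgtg

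Promoter windows were found for 8 members, all but Fbl and Npm1. GGGCGG stood on either strand in 5 of 8, those of Nhp2, Nolc1, Nop58, Ncl and Nop56, against 35.9% of 27025 promoters. The G and C content of these windows was 55.3%, 57%, 45.3%, 69.3% and 66% in that order, against a median of 52.7% over all promoters. The shares were not matched for it. CCGGAAGT stood in 2 of 8, Nhp2 and Gar1, against 4% of promoters. TATAAA stood in 1, that of Dkc1, against 14.2% of promoters. The E-box CACGTG, bound by Myc proteins, was in 0 of 8 windows and in 7.24% of promoters. No motif overlapped another, and a match is only a string in this window.

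Other nucleolar genes were described in 8 lists, which together held 164 tested genes outside the members. Of these 104 were higher and 60 lower in Mcph1-/-, where 53.8% of all tested genes were higher and 46.2% lower. With an unadjusted limma p under 0.05, 10 were higher and 2 lower, where 3.55% of all tested genes were lower. By limma 0 passed over all genes. DESeq2 called 7 of the 164, in a fit that called 2.16% of all genes, and edgeR called 0. Of the 7, Ddx21, Hsp90aa1, Set, Supt16, Wdr12 and Znhit3 were higher and Snhg20 lower. The 10 make 6.10% of the 164, against 4.16% of all tested genes. Over the 164 the median log2 fold change was 0.25, against 0.59 for the members and 0.08 for all tested genes. Of the 164, 13 (7.93%) were higher without overlap between genotypes, near the 7.4% of all tested genes.

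Nearest in function are the factors that assemble small nucleolar ribonucleoproteins, of which 11 of 14 were higher, against 53.8% of all tested genes. Their median log2 fold change was 0.47, but 0.33 without WT replicate 1 and 0.35 without WT replicate 3. Hsp90aa1, an HSP90 chaperone gene of the assembly machine, had 2794, 2726 and 2900 in Mcph1-/- and 1326, 1214 and 1967 in WT, a log2 fold change of 0.93 (SE 0.23, adjusted p = 0.540 by limma). Znhit3, an assembly factor of box C/D particles, had 1337, 1252 and 1433 in Mcph1-/- and 694.0, 875.7 and 700.5 in WT, a log2 fold change of 0.83 (SE 0.25, adjusted p = 0.603 by limma). Neither overlapped between genotypes. Taf9, which the list also holds, had 2751, 2792 and 2752 in Mcph1-/- and 1528, 2551 and 1999 in WT, again without overlap, a log2 difference of 0.48 (SE 0.22, adjusted p = 0.662 by limma). Snu13, the fourth box C/D core protein, which is not one of the 10 genes, had a log2 fold change of 0.50 (SE 0.24, adjusted p = 0.662 by limma). Hsp90ab1, the other HSP90 gene of the list, was read more highly than Hsp90aa1 in every library and overlapped between genotypes. For Hsp90ab1 the difference was 0.094 on the log2 scale (SE 0.15, adjusted p = 0.878 by limma).

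Ribosome assembly factors had medians between those of the members and of all genes. Over all tested genes 53.8% were higher, and 4.16% were higher with an unadjusted limma p under 0.05. For the small subunit processome 30 of 45 genes were higher, with a median of 0.28 (0.17 without WT replicate 1), and 1, Utp4, was higher with an unadjusted p under 0.05 (log2 fold change 1.37, SE 0.42). For large subunit assembly 33 of 48 were higher, with a median of 0.30 (0.14 without WT replicate 2), and 4 had such a p. These were the nucleolar helicase Ddx21 (1.17, SE 0.34), Wdr12 (0.61, SE 0.20), the ribosomal RNA methyltransferase Nop2 (1.72, SE 0.62) and Ebna1bp2 (0.76, SE 0.32). Without overlap the same 4 of the 48 were higher, against 7.4% of all tested genes, and 3 others were lower, against 6.8%. Of other nucleolar phosphoproteins and histone chaperones 11 of 15 were higher, with a median of 0.41, led by Supt16 of the FACT complex (0.82, SE 0.19) and the histone chaperone Set (0.53, SE 0.16). That median was 0.18 without Mcph1-/- replicate 2, 0.21 without WT replicate 2 and 0.27 without WT replicate 1. Ssrp1 of the same list, also of the FACT complex, was lower (-0.79, SE 0.44) and overlapped between genotypes.

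Genes of RNA polymerase I, which transcribes ribosomal RNA, were split between directions. Of 15 tested, 9 were lower and 6 higher, the median being -0.12 on the log2 scale. With an unadjusted limma p under 0.05, 1 was higher, the subunit gene Polr1e (1.26, SE 0.48), against 4.16% of all tested genes. Without overlap 1 was higher, Polr1e, against 7.4% of all tested genes, and 1 lower, against 6.8%. The lower was Taf1c (-3.67, SE 1.88), which was at 0 in Mcph1-/- replicate 3. Of 10 long host transcripts of small nucleolar RNAs 3 were higher and 7 lower, with a median of -0.09. Snhg20 had 3252, 2709 and 2781 in Mcph1-/- and 5810, 5570 and 4194 in WT, without overlap, a log2 fold change of -0.82 (SE 0.19, adjusted p = 0.506 by limma). It was the 1 of these 10 that was lower without overlap, against 6.8% of all tested genes. Telomerase and Cajal body genes were 5 of 9 higher with a median of 0.11, and 0 of 9 had an unadjusted limma p under 0.05; Tert was not analysed here. Over 18 alternatives the medians of these lists crossed 0, from -0.30 to 0.05 for polymerase I, from -0.30 to 0.03 for the host transcripts and from -0.09 to 0.32 for telomerase and Cajal bodies.

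Myc is known to drive ribosome production, and its family had 5 of 9 tested genes higher and a median of 0.20, which was -0.86 without WT replicate 1. The list mixes Myc genes with Mxd genes that act against Myc, so its count and median do not measure Myc activity. Mycn had 509.9, 1204 and 580.3 in Mcph1-/- and 1749, 1474 and 1211 in WT, a log2 fold change of -1.04 (SE 0.37, adjusted p = 0.626 by limma). The groups did not overlap, although 1 Mcph1-/- library and 1 WT library nearly met. Of the 9, 2 were lower without overlap, Mycn and Mxd4 (-1.27, SE 0.59), against 6.8% of all tested genes. Higher without overlap were 0 of the 9, against 7.4%.

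**Figure D5:**
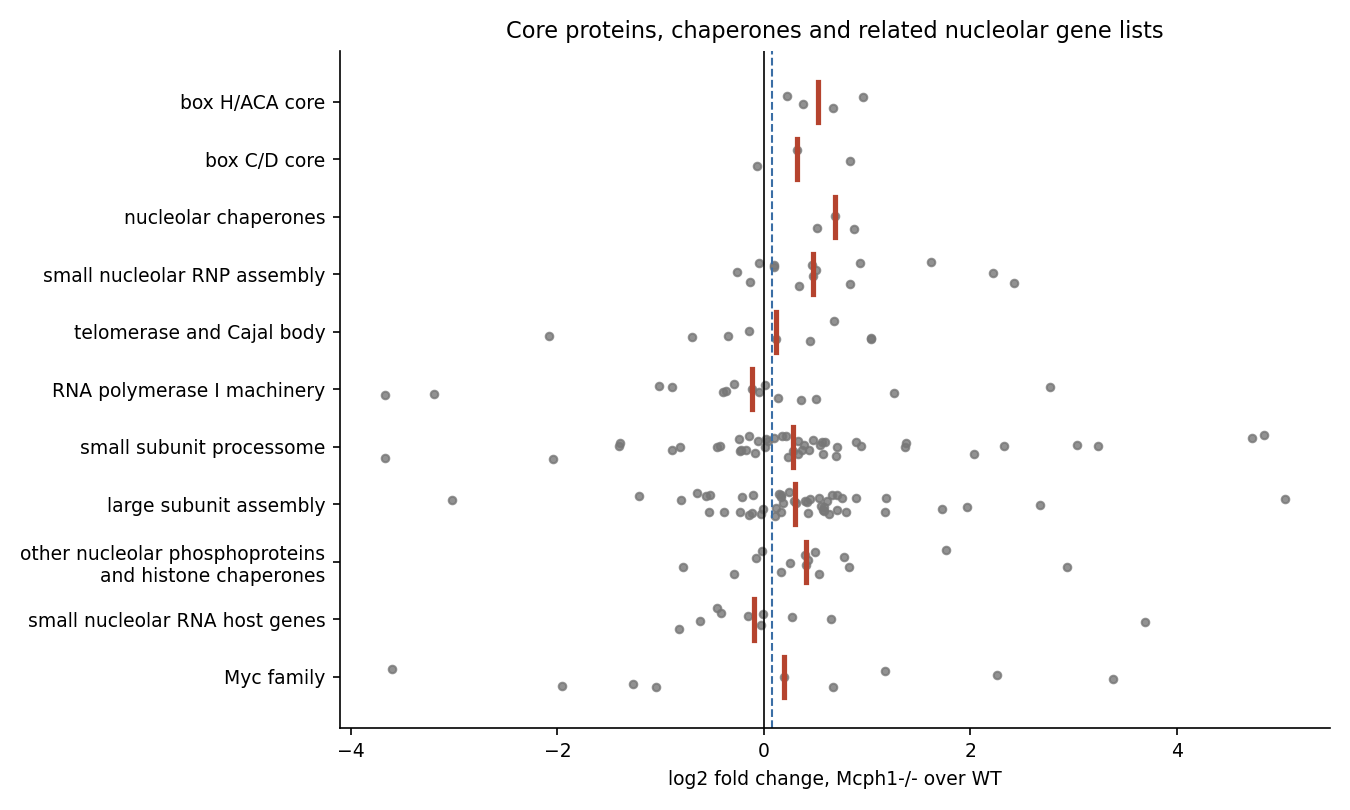
log2 fold change of each tested gene, Mcph1-/- over WT (points, horizontal axis), in the 3 member groups and 8 related lists (rows), with each list's median in red and the median of all tested genes, 0.08, as a dashed line. The chaperones have the highest median, 0.69, and the polymerase I list the lowest, -0.12.

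The libraries also differed in markers of other cell states. Mitosis genes were higher in Mcph1-/- for 22 of 23 tested, with a summed value of 15303 to 19029 in Mcph1-/- and 6547 to 9006 in WT. Neutrophil and granule genes were lower for 6 of 7 tested, with a sum of 3287 to 18724 in Mcph1-/- and 58564 to 67847 in WT. Erythroid genes were higher for 9 of 13, with a sum of 52651 to 58832 in Mcph1-/- and 20263 to 42194 in WT. Most of that sum was from the carbonic anhydrases Car1 (23716 to 31845 in Mcph1-/- and 1628 to 4566 in WT) and Car2 (18233 to 20860 in Mcph1-/- and 14691 to 19712 in WT). The globin genes Hba-a1, Hba-a2 and Hbb-bs were lower in Mcph1-/- without overlap, with log2 fold changes of -3.40, -3.27 and -5.03, none of which passed by limma (adjusted p = 0.626, 0.666 and 0.642). By limma 3 of 7 neutrophil and granule genes, 1 of 13 erythroid genes and 0 of 23 mitosis genes passed, against 4 of all 10846 genes. The part of these marker lists in the values of the members was not tested. Among the genes at 0 in at least 1 library were Kif11, Ttk, Cenpf and Bub1 for mitosis, Elane for neutrophils, and Gata1, Hbb-bs, Epor and Tfrc for erythroid cells.

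The 14 stem cell genes were 5 higher and 9 lower, with sums of 13216 to 15181 in Mcph1-/- and 15337 to 18411 in WT, which did not overlap. For 2 monocyte genes, Lyz2 and Ly6c2, the sums were 4400 to 4695 in Mcph1-/- and 7561 to 12364 in WT, again without overlap and nearly all from Lyz2. For 7 megakaryocyte genes they were 1389 to 2670 in Mcph1-/- and 1989 to 5035 in WT, which overlapped. The 3 listed B cell genes summed to 374 to 2472 in Mcph1-/- and 878 to 1829 in WT, and the 1 listed T cell gene, Lck, to 0 to 212 in Mcph1-/- and 0 to 217 in WT.

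Genes outside the members whose profile over the 6 libraries was most like their mean profile were sought among 7673 genes averaging at least 100, by the root mean square distance between log2 values centred per gene. The nearest was Rpp30, a protein of ribonuclease P, at a distance of 0.059. Next came Mrpl20 of the mitochondrial ribosome at 0.091, Nudt9, an ADP-ribose hydrolase, at 0.11, the splicing regulator Hnrnph1 at 0.11, and the translation initiation factor subunit Eif3a at 0.12. The members themselves lay 0.18 (Ncl) to 0.61 (Gar1) from that mean.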

How the data were processed

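RNA-seq was measured in 6 libraries. Per the submitters' processing notes, which give no role or order, the tools named were HISAT2, featureCounts, DESeq2 and Trim Galore 0.6.6 and the build was mm10. Annotation release and strand setting were not given in the sources used here. For each gene the authors deposited a signal, a count scaled by a library's size factor. The values show this: multiplied back, 100% came out as whole reads within 0.001. Within each genotype every pair of libraries differed beyond sampling noise (chi-square per degree of freedom at least 81.5).

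The members and gene lists were chosen with earlier results of these data known, and no p was adjusted over a list. The main test was limma-trend (limma 3.58.1, R 4.3.3) on log2(value + 1) with a single genotype term, a mean value of at least 10 and Benjamini-Hochberg adjustment over 10846 genes. Fold changes are on that scale, where a library at or near 0 can make that of a low gene large. For Gar1 the log2 fold change was 0.67 on it, against 0.49 by DESeq2 and 0.52 by edgeR. Alternatives were limma-voom, edgeR 4.0.16 and DESeq2 1.42.0 on recovered reads, other scalings, pseudocounts and filters, sample weights, a replicate block and leaving out each library. Pseudogene copies were found with blastn 2.17.0 against GENCODE vM21 transcripts. All members were named, with up to 4 genes of each related list by smallest p. Hsp90ab1 was added beside Hsp90aa1.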

Additional observations from a re-analysis of the deposited data

How the results depend on the processing

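Nhp2, Npm1 and Nolc1 had an unadjusted p under 0.05 in 18 of 18 alternatives, Nop58 in 17 and Ncl in 16. DESeq2 called 3 members (Nhp2, Npm1 and Nolc1; adjusted p = 5.7e-05, 6.4e-04 and 0.0013), in a fit that called 234 genes, or 2.16%, against 4 by limma-trend and 2 by edgeR. In the other 17 alternatives 0 members passed, and the adjusted p of the 3 reached 0.858 without Mcph1-/- replicate 3. Leaving out 1 library at a time, 3 to 6 members had an unadjusted p under 0.05, and the members' median log2 fold change was 0.47 to 0.60, lowest without WT replicate 3. Without Mcph1-/- replicate 3 Ncl and Nop58 lost that p (0.0603 and 0.0537 by limma), without Mcph1-/- replicate 1 Ncl lost it (0.0646), and without WT replicate 1 Nop10 gained it (0.0302). In those fits Dkc1 ranged from -0.070 to 0.43 and Nop56 from -0.17 to 0.085, and no other member changed sign in any of the 18. The median of all genes was -0.03 under DESeq2 and 0.11 with total read scaling, against 0.08. The cause was not tested.

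With the replicate number as a block, the log2 fold change of Nhp2 was 0.96 (limma adjusted p = 0.700) and 5 members had an unadjusted p under 0.05. Same-numbered libraries did not deviate together (r = -0.0074, 0.018 and -0.0073 over 8570 genes). The labels do not say whether the numbers pair the samples, and 3 libraries per genotype cannot settle it. With 3 libraries per genotype of 200 cells each, 4 of 10846 genes passed by limma-trend. Nhp2, at 1.95-fold and rank 26, was not among them, so the absence of a call does not show equal levels. In a member with few reads such as Gar1 a difference is also limited by the spread between libraries.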
